A study of Arabidopsis thaliana with 4 samples.

Results

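AP1 (AT1G69120) sits on chromosome 1 of Arabidopsis thaliana, and the genes described here are its neighbours on that chromosome. They are the genes with a locus code from AT1G64120 to AT1G74120, within 5000 locus numbers of AP1 on either side, that were measured by probes assigned to that locus alone; AT1G67740 was left out. A value on 3 or more arrays was also required. Of 5265 genes of the whole series with a probe of their own and such values, 206 met this rule. Of the 206, 98 had lower and 108 had higher locus numbers than AP1. The members are only a part of the region, since the gene table lists 1147 loci in the same window. Of 40 genes of the region listed by role, 1 was measured, so the members cannot be taken to stand for the region.

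APETALA1 is a MADS-box transcription factor that gives young flower primordia their floral identity and specifies sepals and petals, so apetala1 mutants have altered flowers. Genes that lie near each other on a chromosome tend to be inherited together. A mutant line that has been crossed into another accession keeps a stretch of its original chromosome around the mutated gene, and the genes of that stretch travel with the mutation whatever their function. Arabidopsis locus codes number genes in their order along the chromosome, so a difference in locus number gives order and not a distance in bases.

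Total RNA of apetala1 inflorescences and of wild-type inflorescences was hybridised together on each of 4 two-colour oligonucleotide arrays, sets 1 to 4. The mutant RNA was in channel 1 of sets 1 and 3 and in channel 2 of sets 2 and 4, and the label of set 2 spells the mutant apetela1. The labels used here give no allele, accession, plant age or growth condition for either genotype, and do not say whether sets came from separate plants. P-values therefore rest on array-to-array spread alone, possibly technical, and precision is limited by there being 4 arrays.

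Each value is a log2 ratio of the channels of an array, normalized by the authors. Which genotype is the numerator is unknown, so a ratio is given the sign it has on sets 1 and 3, with sets 2 and 4 turned to match, and positive or negative says nothing about which genotype had more RNA. The turning was itself chosen after values had been seen. A ratio gives no level, so the labelled tissue could not be set against its marker genes. Because the RNA is from whole inflorescences, fewer cells of a type and less RNA per cell cannot be told apart. AP1 has no probe assigned to it in the platform annotation, alone or with other loci, so the mutated gene itself could not be used to check the labels.

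Between apetala1 and wild-type inflorescences no gene linked to AP1 was called different. None of the 206 passed a limma adjusted p of 0.05 over the 25415 features of the arrays, a threshold that 0.220% of all features passed. At so small a share, a count of 0 among 206 genes does not set the members apart from the array. At an unadjusted limma p under 0.05 there were 18 positive and 20 negative genes, which are 8.74% and 9.71% of the members, beside 9.18% and 7.14% of all features. All features include single probes without a locus of their own. For named genes the shares were 6.53% and 8.25% on the rest of chromosome 1, and 7.79% and 6.62% on the other chromosomes. These differences were not tested. The 56 features called on the whole array had ratios of 1.07 or more in size on the log2 scale. The gene with the lowest adjusted p was AT1G64370, at 0.0591. With eBayes in its robust form 1 member was called, the same gene (adjusted p = 0.0475), as calls over all features went from 56 to 109.

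The mean ratios of the members lay close to 0. Their median was -0.03, and the middle 50 percent of genes ran from -0.20 to 0.16. The median over all features was -0.02, with quartiles of -0.18 and 0.17. The median size of a member's ratio, without its sign, was 0.18 on the log2 scale, the same as the 0.18 over all features. The other 1103 genes of chromosome 1 had a median size of 0.17, and the 3955 genes of the other chromosomes 0.16. A mean below 0.5 in size was found for 184 members, or 89.3%, against 86.5% of all features. Only 3 members, or 1.46%, had a mean of 2-fold or more, against 2.66% of all features.

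**Figure D1:**
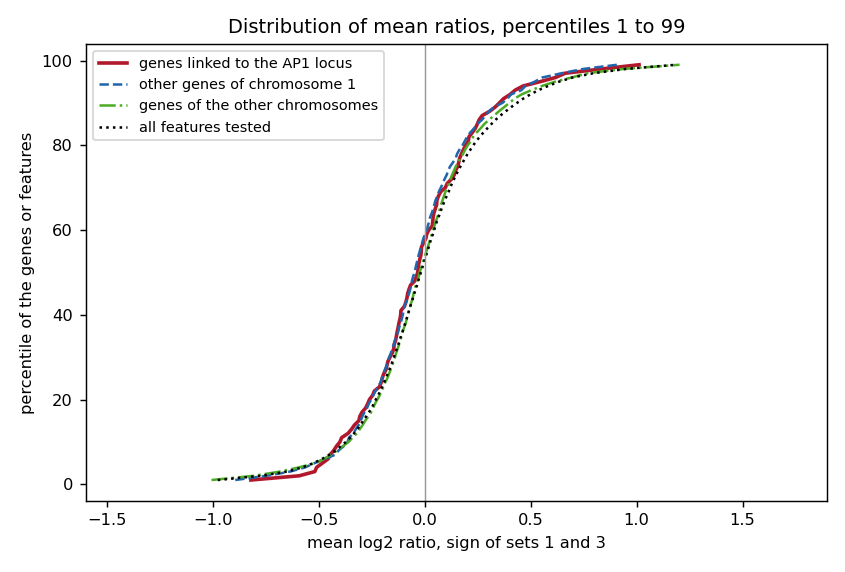
Percentiles 1 to 99 (vertical axis) of the mean log2 ratio (horizontal axis, sign of sets 1 and 3) for the 206 genes linked to AP1, the other genes of chromosome 1, the genes of the other chromosomes and all features tested. The 4 curves lie close together, and the member curve has its median at -0.03.

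On the 4 arrays the members leaned slightly to the negative side. Their median ratios were -0.05, -0.08, -0.04 and -0.01 on sets 1, 2, 3 and 4, and those of all features were -0.01, -0.04, 0.02 and -0.02. Of the members measured on each array, 46.6%, 42.4%, 43.1% and 49% were positive on sets 1 to 4. Over the arrays 88 of the 206 means were positive, or 42.7%, beside 47% of all features and 41.2% of the other genes of chromosome 1. The lean was close to that of the rest of the chromosome, and the difference from all features was not tested.

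A single sign on all 4 arrays was found for 60 of the 201 members with 4 values, 23 positive and 37 negative. These are 11.4% and 18.4% of the 201, beside 13.4% and 13.8% of all features with 4 values. Among the other genes of chromosome 1 the shares were 10.7% and 16%. No member reached 2-fold in a single direction on each of the 4 arrays, where 0.357% of all features did. That share, too, is too small for a count of 0 to set the members apart. The other 141 members had values on both sides of 0, which is 70.1% of the 201, beside 72.7% of all features.

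**Figure D2:**
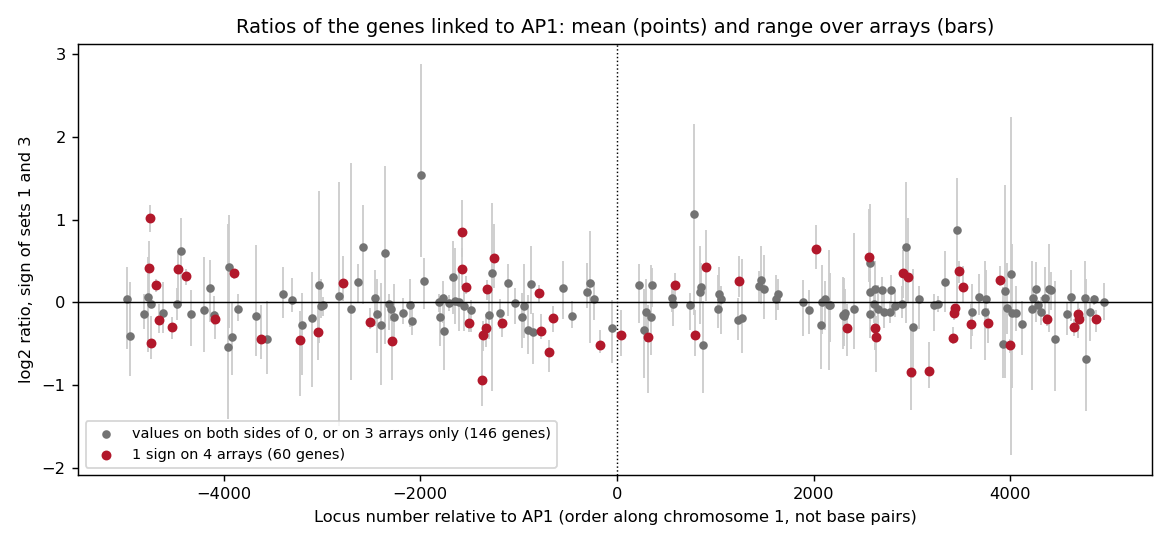
Mean log2 ratio (points, vertical axis) and range over the arrays (grey bars) of the 206 genes against locus number relative to AP1 (horizontal axis). The 60 genes with 1 sign on 4 arrays (red) are spread over the whole window and include means on both sides of 0, from AT1G67750 at -0.94 to AT1G64370 at 1.02.

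The gene with the largest mean among those of 1 sign was AT1G64370. Its log2 ratios were 1.18, 0.86, 0.86 and 1.18 on sets 1 to 4, a mean of 1.02 ± 0.19 (SD, n = 4; limma adjusted p = 0.0591), with a moderated 95% interval of 0.71 to 1.32. All 4 arrays lay on the positive side and the arrays of both channel orders gave both a higher and a lower value. It passed the adjusted threshold when the fit was limited to features with values on all 4 arrays (limma adjusted p = 0.0401). Its limma adjusted p was higher with limit values kept (0.159), with a term for channel order (0.120) and with quantile normalization (0.0922). With no array turned its mean was 0.0004. Without 1 of the arrays its mean stayed between 0.96 and 1.07, and the adjusted p was 0.106 to 0.260.

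URE (AT1G67550) encodes urease, the enzyme that splits urea into ammonia and carbon dioxide and so returns nitrogen to metabolism. Its log2 ratios were 1.24, 1.04, 0.55 and 0.57, with a mean of 0.85 ± 0.34 (SD, n = 4; limma adjusted p = 0.117). All 4 arrays were positive, and sets 1 and 2 were higher than sets 3 and 4. The measured gene just before it, AT1G67540, was positive on all arrays too, at 0.66, 0.19, 0.19 and 0.56. The measured gene just after it, AT1G67570, lay on both sides of 0, at 0.14, -0.34, 0.11 and -0.06. MGL (AT1G64660) encodes methionine gamma-lyase, which breaks down methionine. Its ratios were 0.62, 0.60, 0.02 and 0.39, so set 3 was close to 0, and its mean was 0.40 ± 0.28 (limma adjusted p = 0.266).

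The others among the 10 largest means of 1 sign are known here by locus code alone. AT1G71140 had ratios of 0.66, 0.59, 0.40 and 0.94, a mean of 0.65 ± 0.22 (SD, n = 4; limma adjusted p = 0.132). AT1G71680 had 1.13 on set 1 and 0.25, 0.35 and 0.46 on sets 2 to 4, so that set 1 gave much of its mean of 0.55. AT1G67870 had 0.95, 0.34, 0.70 and 0.17, higher on sets 1 and 3 than on the turned sets. AT1G70030 had the opposite order, with 0.24 and 0.02 on sets 1 and 3 against 0.61 and 0.88 on sets 2 and 4. AT1G64360, next to AT1G64370, had 0.47, 0.41, 0.06 and 0.74. AT1G72600 varied least among the 10 largest, with 0.38, 0.51, 0.42 and 0.23. Adjusted limma p-values of the 10 ran from 0.0591 to 0.298.

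On the negative side AT1G67750 had the smallest mean. Its ratios were -1.26, -1.11, -0.41 and -0.98, a mean of -0.94 ± 0.37 (SD, n = 4; limma adjusted p = 0.108). Set 3 was the array nearest to 0. AT1G72290 had -0.78, -1.02, -0.48 and -1.03, a mean of -0.83 ± 0.26 (limma adjusted p = 0.0960). AT1G72110 had -1.08, -1.30, -0.63 and -0.33, a mean of -0.84 ± 0.44, and sets 1 and 2 lay farther from 0 than sets 3 and 4. All 3 genes were below 0 on every array, and none passed the adjusted threshold in any fit that was run.

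Some negative genes had smaller but steadier ratios. AT1G73120 had -0.45, -0.45, -0.55 and -0.61, a mean of -0.51 ± 0.08 (SD, n = 4; limma adjusted p = 0.137). AT1G68945 had -0.34, -0.61, -0.52 and -0.57, and AT1G68430 had -0.45, -0.84, -0.57 and -0.52. The spread of these genes over arrays was below the median SD of 0.26 among the members. AT1G64380 had -0.17, -0.51, -0.59 and -0.69, and AT1G66830 had -0.24, -0.94, -0.46 and -0.21. AT1G65900 rested mostly on set 1, with -1.13 against -0.36, -0.24 and -0.10. AT1G65500 had -0.60, -0.48, -0.69 and -0.03, so set 4 was close to 0. Adjusted limma p-values of the 10 smallest ran from 0.0960 to 0.324.

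**Figure D3:**
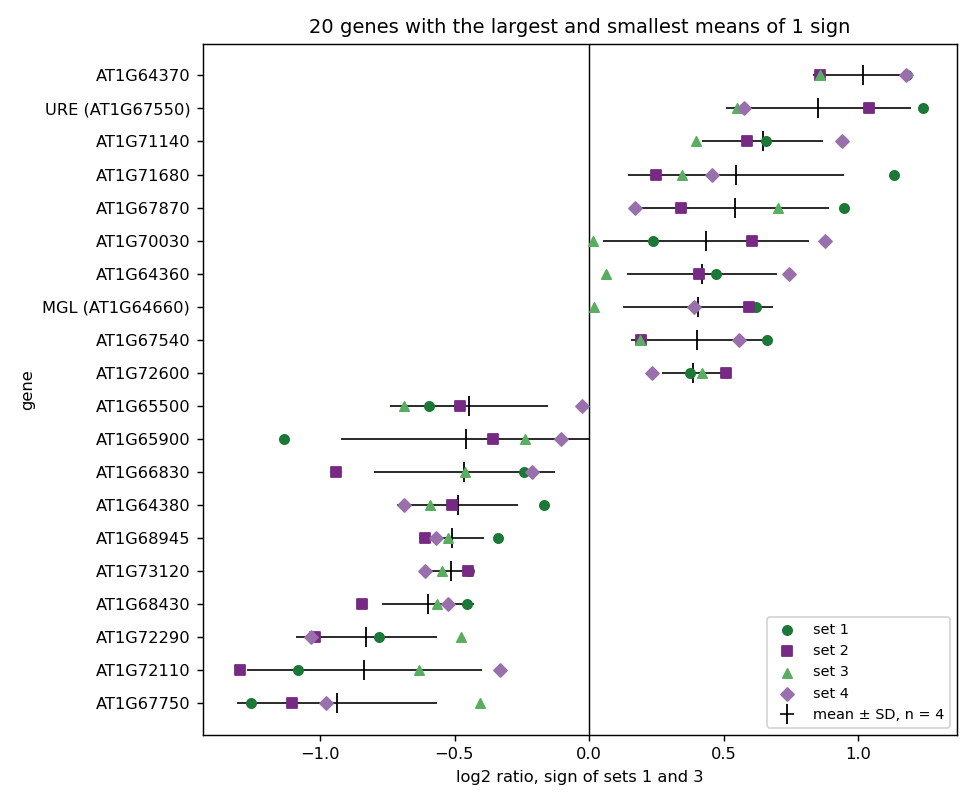
Log2 ratios (horizontal axis, sign of sets 1 and 3) on each array for the 10 largest and the 10 smallest means among members with 1 sign on 4 arrays (vertical axis). Symbols are arrays, and the black bars are the mean ± SD (n = 4); AT1G64370 at the top has the largest mean, 1.02, and AT1G67750 at the bottom the smallest, -0.94.

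The other means of 2-fold or more came from a pair of genes chosen for their values. AT1G67130 had the largest mean of all members, 1.54 ± 1.21 (SD, n = 3; limma adjusted p = 0.241), from 1.18, 2.89 and 0.55 on sets 1, 2 and 4. Its value on set 3 lay at the deposited limit and was left out; with that value kept the mean was 2.82, and with no array turned it was -0.75. AT1G69900 had 1.03, 1.23, -0.15 and 2.15, a mean of 1.07 ± 0.95 (SD, n = 4; limma adjusted p = 0.245), and set 3 lay on the other side of 0. In both genes the arrays differed among themselves by more than 2-fold. At the other end of the spread, AT1G65230, also picked after its values were seen, had the smallest SD of all members. Its ratios were 0.37, 0.38, 0.39 and 0.29, a mean of 0.35 ± 0.05 (SD, n = 4; limma adjusted p = 0.218).

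The 9 members nearest AP1, of which AT1G68820 and AT1G69420 are equally far from it, had means from -0.51 to 0.24. Their median size was 0.24 and 6 of them exceeded the 0.18 of all features, a difference that was not tested. The closest measured gene, AT1G69160, 40 locus numbers above AP1, had -0.26, -0.09, -0.57 and -0.64, all below 0, with a mean of -0.39 ± 0.26 (SD, n = 4; limma adjusted p = 0.266). AT1G69070, 50 locus numbers below, had -0.74, -0.32, -0.21 and 0.03, a mean of -0.31 ± 0.32 (limma adjusted p = 0.387). AT1G68945, 175 below, was described above and had the smallest mean of the 9, -0.51. PHYLLO (AT1G68890), needed to make the photosystem cofactor phylloquinone, had 0.24, 0.01, -0.21 and 0.11. The others, AT1G69350, AT1G68850, AT1G69400, AT1G68820 and AT1G69420, each had arrays on both sides of 0, with means of 0.21, 0.24, -0.33, 0.12 and -0.12. Of the nearest 9 genes, 2 had 1 sign on all arrays, and both were negative.

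The members were also grouped by their distance from AP1. Within 1000 locus numbers of AP1 there were 33 members with a median ratio of -0.05 and a median size of 0.21, and 8 of them, or 24.2%, had an unadjusted limma p under 0.05, where 16.3% of all features did. These were 2 positive genes, or 6.06%, and 6 negative genes, or 18.2%, beside 9.18% and 7.14% of all features. Over both signs, 14.8% of the other genes of chromosome 1 and 14.4% of the genes of the other chromosomes were under that p. From 1000 to 2000 the median size was 0.18 in 40 genes, with 7 genes (17.5%) under that p. From 2000 to 3000 it was 0.15 in 48 genes, with 7 (14.6%). From 3000 to 4000 it was 0.25 in 39 genes, with 8 (20.5%), and from 4000 to 5000 it was 0.15 in 46 genes, with 8 (17.4%). The differences between these distances were not tested. Across the 206 genes the rank correlation of size with distance was -0.03, a description over genes that share the same arrays.

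At the limits of the window the genes just inside and just outside had the following means. AT1G64140, inside, had a mean of 0.04 ± 0.44 and AT1G64050, outside, 0.01 ± 0.32 (SD, n = 4). At the upper limit AT1G74070, inside, had 0.01 ± 0.21 and AT1G74240, outside, -0.18 ± 0.21.

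Neighbouring members did not run together. Of 80 pairs of adjacent measured members no more than 20 locus numbers apart, 39 had means of the same sign, or 48.8%, and the ratios of the neighbours correlated at r = 0.08. Among 1927 such pairs elsewhere in the genome 51% had the same sign. A local example is AT1G64360, AT1G64370 and AT1G64380, which lie next to each other among the measured genes and had means of 0.42, 1.02 and -0.49, each of 1 sign. AT1G67760, next to AT1G67750 and picked for its position after its values were seen, was negative on every array, with -0.24, -0.22, -0.59 and -0.54. AT1G72540, AT1G72550 and PSD (AT1G72560), another trio picked in this way, were below 0 on every array with means of -0.44, -0.13 and -0.07. The longest runs of consecutive measured members with means of 1 sign, whatever the gap between them, were 7 genes long and both negative. They went from AT1G66800 to AT1G67040 and from AT1G71280 to AT1G71530. Runs elsewhere in the genome were not counted.

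Of the members, 22 have a symbol in the gene table and 184 are known here by locus code only. The lists of 40 genes of this region by role, covering flower and meristem regulators, hormones, pigments, cell wall and photosynthesis, had 1 measured gene. This was HPR (AT1G68010), the hydroxypyruvate reductase of photorespiration, at 0.47, 0.32, 0.34 and -0.16, a mean of 0.24 ± 0.28 (SD, n = 4; limma adjusted p = 0.459). Set 4 lay on the other side of 0. The 16 flower, meristem and flowering-time regulators on the lists, among them FT, CRC, PAN and JAG, had no member, so these regulators stay undescribed here.

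The genes with a known part in development given next were named because the gene table gives them a symbol, except for AT1G72390. AGO7 (AT1G69440) encodes the Argonaute protein that starts the trans-acting small RNA pathway controlling leaf polarity and phase change. Its ratios were -0.28, -1.09, -0.27 and -0.03, all below 0, with a mean of -0.42 ± 0.46 (SD, n = 4; limma adjusted p = 0.363), and set 2 gave most of it. BLT (AT1G64690), needed for trichome branching, had 0.61, -0.04, 1.02 and 0.91, a mean of 0.62 ± 0.48 (limma adjusted p = 0.236), with 3 arrays positive and set 2 just below 0. TCP15 (AT1G69690), a TCP transcription factor that limits cell proliferation in leaves and flowers, had -0.15, 0.21, -0.29 and 0.16, so its sign followed the channel order. CLE26 (AT1G69970), which encodes a small signalling peptide, had 0.69 on set 1 and -0.26, -0.02 and 0.11 on the others. AT1G72390, without a symbol, was named for its synonym PHYTOCHROME-DEPENDENT LATE-FLOWERING and stayed within -0.12 and 0.08. Synonyms of other members were not used to name genes.

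Among annotated genes of the cytoskeleton and of secretion none was called. TUA1 (AT1G64740), an alpha-tubulin gene, had 0.40, 0.22, 0.36 and 0.32, a mean of 0.32 ± 0.08 (SD, n = 4; limma adjusted p = 0.248), positive on every array. PFI (AT1G71440), a tubulin-folding cofactor, had a mean of -0.12 ± 0.24 with arrays on both sides of 0. TRM22 (AT1G67040), of the family that recruits the microtubule protein TON1, had -0.34, -0.39, 0.02 and -0.20. SEC6 (AT1G71820), a subunit of the exocyst that tethers secretory vesicles, had -0.12, 0.27, 0.12 and 0.31. TBL31 (AT1G73140), of the family of wall polysaccharide acetyltransferases, ranged from -1.03 on set 2 to 0.71 on set 4.

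The remaining annotated genes, among them genes of metabolism, transport and organelles, gave no called difference either. HGPT (AT1G71750), a phosphoribosyltransferase of purine salvage, had -0.13, -0.58, -0.19 and -0.34, negative on every array (limma adjusted p = 0.307). SPPA (AT1G73990), a signal peptide peptidase, had -0.09, -0.24, -0.36 and -0.09, also negative on every array (limma adjusted p = 0.454). CHX16 (AT1G64170), a cation/H+ exchanger, had -0.31, -0.66, -0.88 and 0.24, with set 4 on the other side. NdhL (AT1G70760), a subunit of the chloroplast NADH dehydrogenase-like complex, had a mean of 0.10 ± 0.16. PSD, the exportin of transfer RNA, had a mean of -0.07 ± 0.08. The means of ILA (AT1G64790), CDI (AT1G64980), GLC (AT1G65450) and AR401 (AT1G66680) were -0.13, 0.17, -0.17 and -0.14, each with arrays on both sides of 0.

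How well the arrays repeated each other differed between pairs of sets. Across the members the ratios of sets 1 and 2 correlated at r = 0.55 (203 genes), and those of sets 1 and 3 at 0.37 (204 genes). Sets 3 and 4 correlated at -0.13 (204 genes), with 50% of the genes of the same sign on both. The same pairs gave r = 0.38, 0.34 and 0.07 over all features. By rank, sets 3 and 4 correlated at 0.05 across the members and at 0.11 over all features. The correlations run across genes, which share arrays and labelling, and are given as a description.

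**Figure D4:**
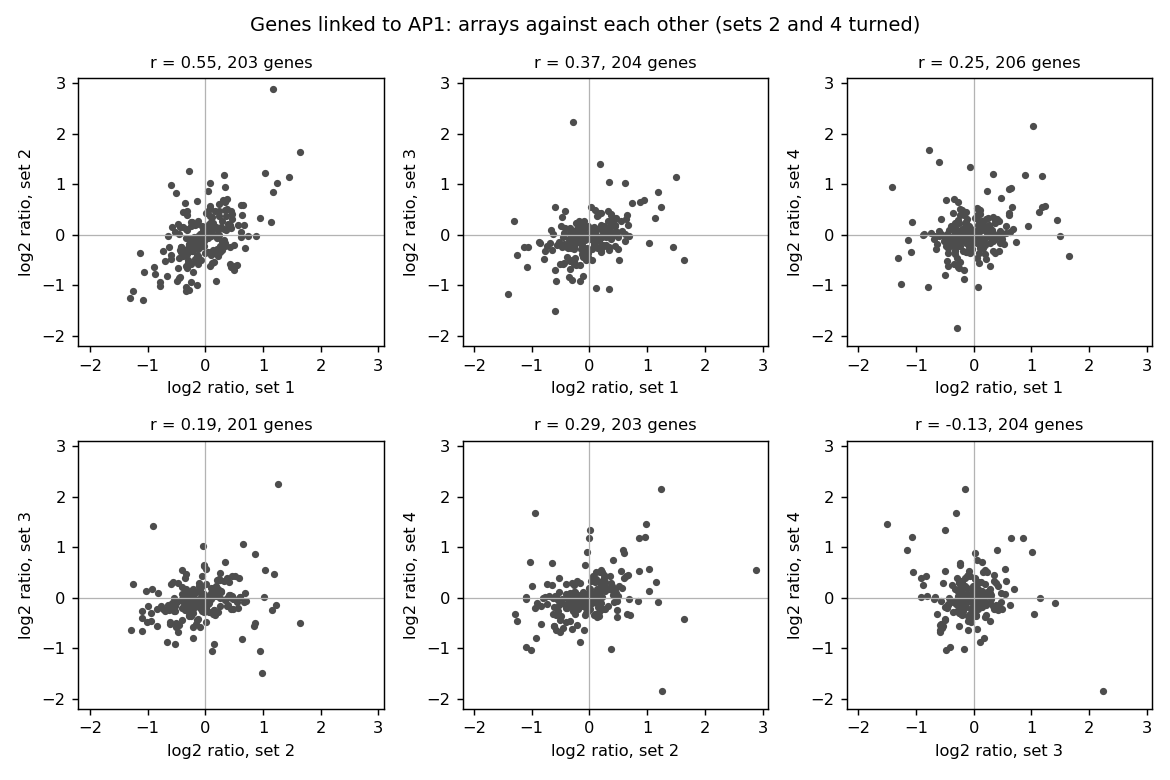
Log2 ratio of each member on a set (horizontal axis) against another set (vertical axis), with sets 2 and 4 turned, for the 6 pairs of arrays; each point is a gene. The points of sets 1 and 2 are drawn out along the diagonal (r = 0.55), and those of sets 3 and 4 are not (r = -0.13).

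The signs were also counted as deposited. In that form, before sets 2 and 4 were turned, 24 of the 201 members with 4 values had 1 sign on all arrays, or 11.9%, beside 11.7% of all features. After turning, the 60 members of 1 sign were 29.9%, beside 27.3%. AT1G66290, picked out after its values were seen, is an example of 1 sign as deposited. It had -0.60 and -1.50 on sets 1 and 3 and 0.98 and 1.45 on sets 2 and 4 after turning, so that its mean of 0.08 ± 1.37 (SD, n = 4) averages values of opposite sign. AT1G73130 had the widest spread of all members, -0.29, 1.26, 2.24 and -1.85, in no order of channel.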

How the data were processed

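Deposited for each of the 4 arrays was a log2 ratio between its channels. Per the labels, processing and normalization by the authors followed a published method; steps, software, background correction and dyes: not given in the sources used here. No value exceeds 6.64 in size, the log2 of 100. Values at this limit were left out, and sets 2 and 4 were turned in sign because, as deposited, arrays of opposite channel order correlated below 0 (median r = -0.14 over probes). Both choices were made after values had been seen. Column medians over probes were -0.00, 0.06, 0.04 and 0.03, so the values are not exactly centred; the numerator channel is unknown. The number of value columns of no sample was 0.

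The table held 26474 probes other than controls and empty spots. The platform annotation and a TAIR10.1 gene table, used for names and order only, gave 5756 probes a single locus. Probes of a gene were averaged per array, and each probe without a single locus was kept as a feature of its own. Features with values on at least 3 arrays, 25415 in all, were tested for a mean ratio other than 0 (two-sided) in limma 3.58.1 (lmFit, eBayes; R 4.3.3), and p-values were adjusted by Benjamini-Hochberg over all of them. Of these, 56 were called, 50 of them positive. Figures were drawn with matplotlib 3.10.9.

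Named are members called, the 10 largest and 10 smallest means among those of 1 sign on 4 arrays, the 8 nearest AP1 (with a tie for the last, 9) and those on the lists by role; others are named as annotated or as picked after their values were seen. The members, lists and rules were chosen with earlier results of these data known. The fit was tested on simulated data. Alternatives changed the limit values, turning, the filter, eBayes, normalization, centring, a channel order term, probe averaging, the window, shared probes, the threshold and the arrays used.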

Additional observations from a re-analysis of the deposited data

Results flagged for a closer look

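Of 58 results checked for an array standing apart from the other 3 by Dixon's ratio, 1 did so, and chance picks out about 1 in 20. PSD (AT1G72560), the transfer RNA exportin gene, had a log2 ratio of -0.19 on set 1, against -0.04, -0.03 and -0.02 on the other arrays.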

How the results depend on the processing

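The count of called members was 0 in limma and became 1 with features measured on all 4 arrays only and 1 with robust eBayes, in both cases AT1G64370, while calls over all features went from 56 to 140 and 109; at an unadjusted p under 0.05 there were 38 members in the reported fit. Under the 10 other settings and without each replicate (0 to 0) it stayed 0, but there calls over all features were 0 with no array turned and without replicate 1, and 1 with limit values kept, with the channel order term, at a threshold of 0.01 and without replicate 2, so a count of 0 says little in those fits. The positive members at an unadjusted p under 0.05, 18 as reported, were 2 with no array turned, 7 with a window of 2500 locus numbers, which holds 95 genes, and 6 to 13 without 1 replicate, where fewer arrays enter each fit. The negative members, 20 as reported, were 7 with no array turned, 10 with the smaller window and 11 to 22 without 1 replicate. With probes of several loci of the window added, 265 features in all, the positive and negative counts were 25 and 23. Without replicate 1 they were 6 and 12, without replicate 2 12 and 11, without replicate 3 13 and 12, and without replicate 4 11 and 22. The median ratio of the members, -0.03, ranged from -0.05 to -0.02 without 1 replicate and moved by less than the spread between arrays under every alternative run. With no array turned, sets 2 and 4 entered with the opposite sign, so ratios that match after turning were set against each other. In that setting 101 of the 206 members kept the sign of their mean. A sign change there in a gene of 1 sign shows only that sets 2 and 4 were larger in size than sets 1 and 3. Among the named genes of 1 sign the mean changed sign there for AT1G64360 (-0.15), AT1G64380 (0.11), MGL (-0.087), AT1G66830 (0.11), AT1G67750 (0.11), AT1G68430 (0.087), AT1G68945 (0.080), AGO7 (0.14), AT1G70030 (-0.31), AT1G71140 (-0.12), HGPT (0.15), AT1G72290 (0.20), AT1G72540 (0.040) and AT1G73120 (0.016). For the changes under the other settings the cause was not tested. No further pairing was added, because each array already holds both genotypes and the ratio tested against 0 is the paired value. The deposited ratios carry no signal over background, so dim spots could not be told from bright ones.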

Other observations

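A further 5 loci of the window had a probe of their own but values on too few arrays to be tested, because the rest lay at the deposited limit, always the upper one before turning. AT1G72070 was at the upper limit on all 4 arrays as deposited, so it kept 1 sign while the channels were exchanged. AT1G64510 and AT1G66920 were at the limit on 3 arrays each, with a single remaining log2 ratio of 3.28 on set 3 and -0.83 on set 1. AT1G68420 and AT1G68780 were at the limit on 2 arrays each, with -0.26 and -1.63 left on sets 1 and 2 for the former and 0.47 and 2.84 on sets 1 and 3 for the latter.

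Of 11 tested members with more than 1 probe, 7 had probe means of 1 sign. The widest disagreement was in AT1G65180, where a probe had -0.05, -0.08, -0.21 and -0.28 on sets 1 to 4 and the other 0.72, 1.37, 2.32 and -0.35, so that its averaged ratio stands for neither probe.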
